A study of Mus musculus with 2 samples.

Results

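The mast cell protease cluster is a run of 8 protein-coding genes on mouse chromosome 14, *Cma1*, *Cma2*, *Mcpt1*, *Mcpt2*, *Mcpt9*, *Mcpt4*, *Mcpt8* and *Ctsg*, which all encode chymotrypsin-like serine proteases or their close relatives. Binding there was read from a list of 51356 ChIP-seq peaks, of which 5 had a summit inside or within 20 kb of the RefSeq span of a listed gene. Of the 8 genes, 6 had such a summit (75.0%), against 62.3% of all protein-coding genes, and 3 had a summit inside the gene (37.5%), against 32.3% of all, so the counts were near the background. The strongest peak lay inside the annotated span of *Cma2* with 48.1-fold enrichment, and the next lay 842 bp upstream of *Mcpt1* with 31.1-fold enrichment. *Mcpt4* and *Mcpt8* had no summit within 20 kb. The peaks were chosen by the summit positions in that list, and the genes with its results known, so their values are a description and were not tested.

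ChIP-seq (chromatin immunoprecipitation followed by sequencing) was done in C2C12, an established mouse myoblast line, on cells of 1 clone that carry the codon-altered transgene MMH. MMH joins the homeodomains of mouse Dux, which bind DNA, to the carboxy-terminal end of human DUX4, and is switched on by doxycycline. Of the 2 libraries, 1 was precipitated with MO488 and MO489, antisera to DUX4, and 1 was a control labelled HA, both from cells of the same genotype given 2 ug/ml doxycycline for 18 h. The file header also names HA, but the series' design text names GFP as the control antibody, so which of HA and GFP was used cannot be told from these sources. No uninduced library or library without MMH enters the list.

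Proteases of this family are stored in the secretory granules of blood-derived cells with proteoglycan, and they are released when the cell degranulates. The chymase genes are known for their division among mast cell types. *Mcpt1* and *Mcpt2* are typical of mast cells of mucosal surfaces, *Mcpt4* and *Cma1* of those of connective tissue, and *Mcpt8* marks basophils. *Ctsg* encodes cathepsin G of the azurophil granules of neutrophils. The granzyme genes of cytotoxic lymphocytes follow in the same locus. Myoblasts are not a cell type in which this family is known to act, and RNA of these genes was not analysed here.

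The peak caller kept 26253175 fragments of the antisera library and 23412256 of the control library. Median fold enrichment over the whole list was 8.02 and median pileup, the number of antisera fragments over a summit, was 41.0. The local background, which the caller derives from the control, has a floor of 4.01 fragments that 78.0% of all peaks share. With 1 library per group there is no replicate check, and the 95% Poisson intervals given with each value cover counting error only. Positions are in mm10.

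Toward the *Cma1* end, the strongest peak of the cluster lay at chr14:55953671-55954272, with its summit at 55953971. The antisera library had 240 fragments over the summit (Poisson 95% interval 211 to 272), against a local background of 4.01. That background is the floor, so no local excess of control fragments was recorded there. Fold enrichment was 48.1 (interval 42.2 to 54.5), which placed the peak 967th of the 51356 peaks and 29th of the 2151 on chromosome 14. The summit fell inside *Cma2*, annotated at chr14:55950980-55989785. It also lay 1600 bp from the nearer end of *Mcpt-ps1*, a transcribed protease pseudogene that overlaps the left end of *Cma2*, and 9296 bp upstream of the start of *Cma1*. *Cma1* (chr14:55941451-55944675, minus strand), which encodes a chymase also called Mcpt5, had no summit inside it and no other summit within 20 kb.

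A second peak within *Cma2* was much lower. It lay at chr14:55970541-55971022, 16.9 kb to the right of the first. Its pileup was 62 antisera fragments (interval 47.5 to 79.5), against a local background of 5.61, the highest of the 5 peaks. Fold enrichment was 9.54 (interval 7.35 to 12.2), and 41.0% of all peaks had at least this value. The intervals of the peaks in *Cma2* do not overlap. The annotated span of *Cma2*, 38806 bp, was the longest of the 8 genes, while 6 of the 8 spanned 2428 to 3632 bp. A longer span has more room to hold a summit, and its part in these counts was not tested.

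**Figure D1:**
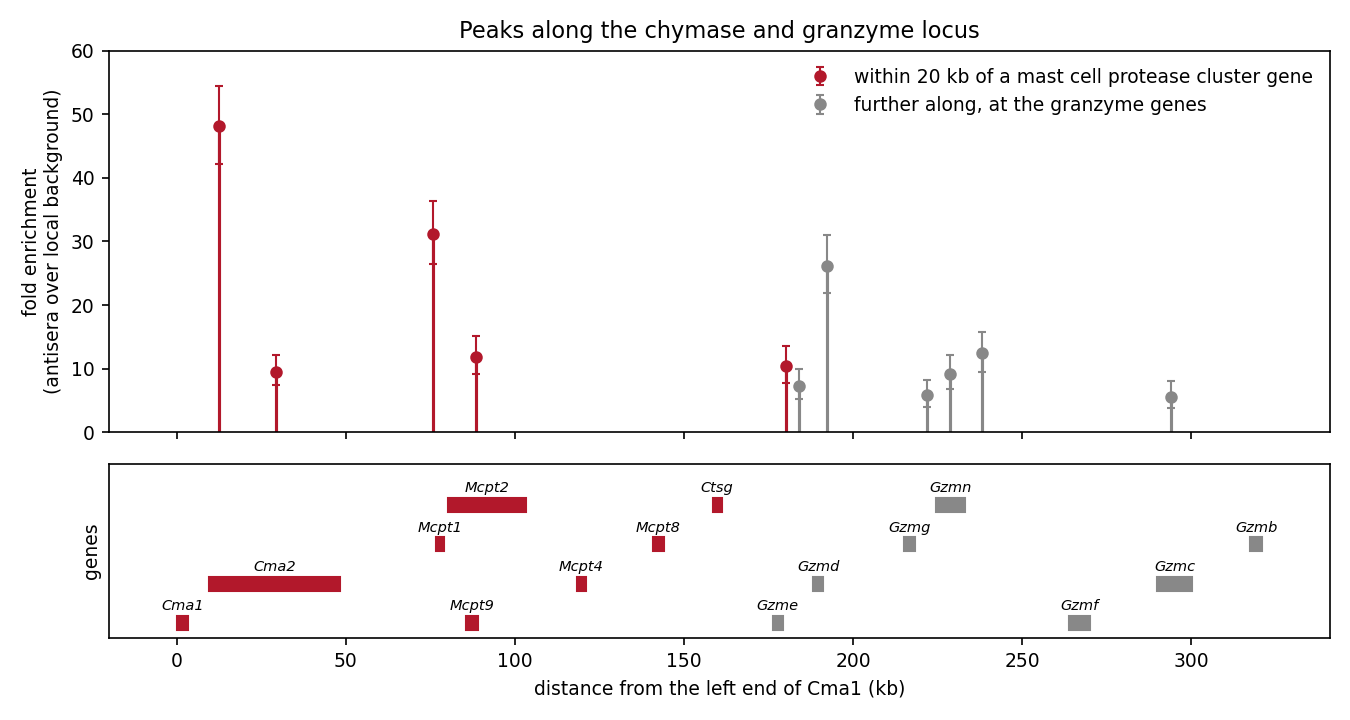
Fold enrichment over local background at each peak summit (top) and RefSeq gene spans (bottom), by distance in kb from the left end of *Cma1*. Points are peaks with 95% Poisson intervals of the pileup, red for the 5 peaks within 20 kb of a listed gene and grey for those further along. The tallest, at 48.1-fold, stands in *Cma2* and the next, at 31.1-fold, just left of *Mcpt1*. No peak stands over *Cma1*, *Mcpt1*, *Mcpt4*, *Mcpt8* or *Ctsg*.

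Further right, a peak lay just before *Mcpt1* and another inside *Mcpt9*. The first, at chr14:56016808-56017402, had 155 antisera fragments over its summit (interval 132 to 181), against a local background at the floor of 4.01. Its fold enrichment of 31.1 (interval 26.4 to 36.4) was met or passed by 5.71% of all peaks, and its interval lies below that of the strongest peak and above those of the other 3. The summit was 842 bp upstream of the start of *Mcpt1* (chr14:56017964-56020391, plus strand), outside any annotated gene. It was the closest of the 5 summits to a known start on the upstream side among the listed genes.

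The *Mcpt9* peak lay at chr14:56029643-56030180. It had 64 antisera fragments (interval 49.3 to 81.7), against a local background of 4.49, slightly above the floor. Fold enrichment was 11.8 (interval 9.17 to 15.1), the median of the 5 peaks. The summit was inside *Mcpt9* (chr14:56026864-56030495, minus strand), 609 bp downstream of its start. *Mcpt9* encodes a protease known from mast cells of the mouse uterus. RefSeq's span of *Mcpt2* (chr14:56021584-56044635) encloses *Mcpt9*, so the same summit also counts for *Mcpt2* and the genes share this peak rather than holding 1 each. Likewise the *Mcpt1* peak lay within 20 kb of *Mcpt2* and *Mcpt9*, so *Mcpt1*, *Mcpt2* and *Mcpt9* each counted the same pair of summits.

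To the right of *Mcpt9* the list held no summit for 91.6 kb. *Mcpt4* (chr14:56059744-56062310, minus strand), the gene of the main chymase of connective tissue mast cells, lay 29.9 kb from the nearest summit, that in *Mcpt9*. *Mcpt8* (chr14:56082163-56085499, minus strand) lay 36.0 kb from the nearest, which was the peak beyond *Ctsg*. Of all gaps between neighbouring summits on the autosomes and X, 15.9% were at least this long, and the median gap was 27.5 kb. The absence of a peak says only that none passed the authors' threshold, since values between peaks were not part of the list.

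*Ctsg* (chr14:56099885-56102574, minus strand) entered the count through a peak at its far side. This peak, at chr14:56121169-56121748, had 51 antisera fragments (interval 38.0 to 67.1), against a local background at the floor of 4.01, and 10.4-fold enrichment (interval 7.77 to 13.6). Its summit lay 18929 bp upstream of the start of *Ctsg*, just inside the limit of 20 kb, and only 878 bp upstream of the start of *Gzme*, a granzyme gene. The next summit to the right, 22982 bp from *Ctsg* and so just outside the limit, had 37 antisera fragments and 7.33-fold enrichment. On the left the nearest excluded summit was 60.5 kb from *Cma1*, with 33 fragments and 6.78-fold enrichment. Without the *Gzme*-side peak the cluster had 4 peaks at 5 of the 8 genes, and their median fold enrichment was 21.5.

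**Figure D2:**
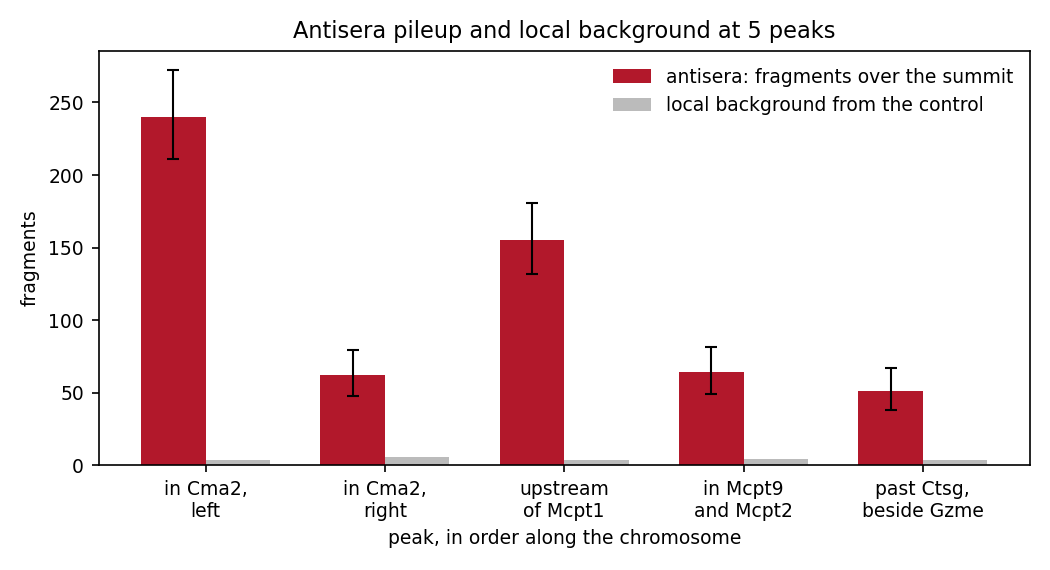
Antisera fragments over the summit (red, with 95% Poisson intervals) and local background derived from the control (grey) at the 5 peaks in order along the chromosome. Pileups run from 51 to 240 fragments, while the backgrounds lie between 4.01 and 5.61.

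*Mcpt1* and *Mcpt4* are close copies at their starts, yet a 31.1-fold peak lay upstream of *Mcpt1* and no summit lay within 20 kb of *Mcpt4*. Their windows from 250 bases before to 50 after the gene start (RefSeq, GRCm38.p6, the primary assembly of mm10) are shown for that reason, 5′ to 3′ on the gene's own strand. The *Mcpt1* window is chr14:56017714-56018013 on the plus strand and the *Mcpt4* window chr14:56062261-56062560 on the minus strand. Capitals mark the runs of at least 10 bases that are identical in an alignment of both windows, 163 bases in each.
Mcpt1: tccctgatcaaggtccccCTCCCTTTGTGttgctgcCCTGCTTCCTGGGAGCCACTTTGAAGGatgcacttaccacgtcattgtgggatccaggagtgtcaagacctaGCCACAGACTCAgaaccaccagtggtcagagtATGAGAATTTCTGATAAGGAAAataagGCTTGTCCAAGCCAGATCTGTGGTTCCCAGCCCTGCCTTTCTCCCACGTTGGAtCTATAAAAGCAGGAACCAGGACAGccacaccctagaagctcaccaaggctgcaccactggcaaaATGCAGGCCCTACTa
Mcpt4: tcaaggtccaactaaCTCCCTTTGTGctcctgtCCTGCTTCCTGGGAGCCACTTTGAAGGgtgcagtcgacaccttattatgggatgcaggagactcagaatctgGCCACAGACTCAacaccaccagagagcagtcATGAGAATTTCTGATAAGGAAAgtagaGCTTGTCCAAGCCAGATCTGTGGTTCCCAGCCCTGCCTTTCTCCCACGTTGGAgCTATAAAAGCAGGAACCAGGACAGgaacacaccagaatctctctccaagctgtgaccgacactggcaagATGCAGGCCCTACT

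The windows were identical at 249 of 309 alignment columns (80.6%), with 53 bases as the longest identical run. Between the other 14 pairs of windows, from *Cma1*, *Mcpt1*, *Mcpt4*, *Mcpt8*, *Mcpt9* and *Ctsg*, identity was 41.4 to 49.0%. The peak before *Mcpt1* does not reach its window: its nearer edge is 312 bp away. At *Mcpt9* the edge of the peak is 266 bp from the window on the other side. A summit lay inside 0 of these 6 windows and inside 1.15% of all 32851 RefSeq windows. The sources used here do not say how reads that fit both copies were placed.

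Words of homeodomain sites were looked for on both strands of these windows. The core words of mouse Dux and of human DUX4 were in 0 of the 6 windows, and in 3 and 2 of all 32851. The shorter words TGATTGAT and TAATTA were also in 0 of 6, and were in 0.746% and 5.29% of all windows. The sequence under the peaks themselves was not used here, so the windows say nothing about the sequence that the antisera enriched beside them.

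Set against the whole list, the 5 peaks were all above the median fold enrichment, at 9.54 to 48.1 with a median of 11.8, against 8.02 for all peaks and 7.98 for chromosome 14. Their median pileup was 64.0 fragments, against 41.0 for all peaks. They were wide too, at 482 to 602 bp with a median of 580 bp, against 430 bp for all peaks, of which 17.5% were wider than 580 bp. Coding genes whose best peak within 20 kb reached 48.1-fold made up 2.84% of all 21900, and those that reached 31.1-fold made up 8.26%. A best peak of at least 31.1-fold was shared by 5 of the 8 listed genes, *Cma1*, *Cma2*, *Mcpt1*, *Mcpt2* and *Mcpt9*, but these 5 genes hold only 2 such peaks among them.

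**Figure D3:**
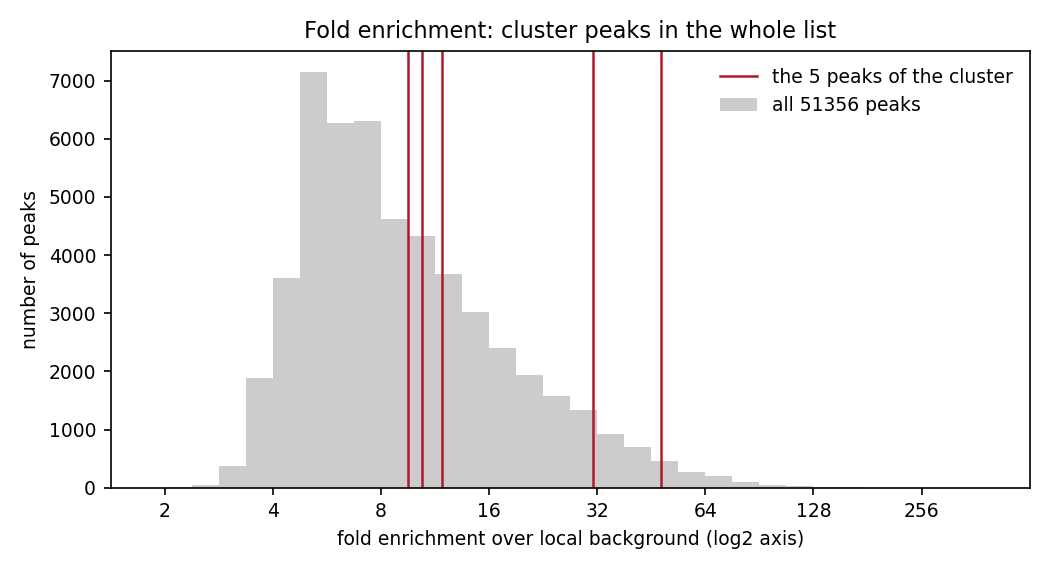
Number of peaks by fold enrichment over local background (log2 axis) for all 51356 peaks (grey bars), with the 5 peaks of the cluster as red lines. Of the lines, 3 stand close together from 9.54 to 11.8 and the others stand in the upper tail at 31.1 and 48.1.

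By number, the genes were near the background. A summit lay inside or within 20 kb of 6 of the 8 genes (75.0%), against 62.3% of all coding genes. It lay inside or within 5 kb of 4 of the 8 (50.0%, background 43.2%) and inside 3 of the 8 (37.5%, background 32.3%). The span of the cluster widened by 20 kb, 201 kb in all, held 5 summits, or 24.9 per Mb, against 17.3 per Mb on chromosome 14 and 19.7 on the autosomes and X. Among windows of the same width, 36.1% held at least 5 summits, and 6.77% held a peak of at least 48.1-fold.

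The granzyme genes continue the locus. The 160 kb to the right, up to 20 kb past *Gzmb*, held 6 summits (37.6 per Mb) with a median fold enrichment of 8.25, and the highest was 26.1 (interval 21.9 to 31.0) at 1120 bp from *Gzmd*. *Gzme* itself lies left of this stretch, and the peak beside it is among the 5 counted for the mast cell protease cluster, so the numbers on each side depend on where that peak is placed. Over the whole locus a summit lay within 5 kb of 5 of the 7 granzyme genes (71.4%, background 43.2%), *Gzmc*, *Gzmd*, *Gzme*, *Gzmg* and *Gzmn*. The same 5 were those with one within 20 kb (71.4%, background 62.3%), and 2 of the 7 had one inside (28.6%, background 32.3%). No summit lay within 20 kb of *Gzmb*, a main granzyme of cytotoxic lymphocytes, or *Gzmf*. No test of the difference between both ends of the locus was made.

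Related genes elsewhere were counted in the same way, and 62.3% of all coding genes had a summit within 20 kb. The lists are small, and differences from that share were not tested. Of 9 tryptase and other *Prss* genes of chromosome 17, 3 had a summit within 20 kb (33.3%). Of these, *Prss32* and *Prss33* counted the same summit. The highest was 8.98-fold near *Prss34*, a basophil and mast cell protease gene, and the mast cell tryptase gene *Tpsb2* had none. *Tpsab1*, among the 9, is annotated as a transcribed pseudogene, while the background share is of protein-coding genes only. None of 4 chromosome 10 protease genes, the azurophil *Elane*, *Prtn3* and *Prss57* and their neighbour *Cfd*, had a summit within 20 kb. They lie close together, so these are not separate cases. Of the 3 granzyme genes on other chromosomes, *Gzma* and *Gzmk* had one (66.7%), at up to 13.6-fold, and *Gzmm* did not. Of 5 genes of protease inhibitors, such as *Slpi* and *Serpinb9*, all had one, at 5.78 to 15.9-fold.

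Among 15 other genes of mast cells and basophils, 11 had a summit within 20 kb (73.3%), against 62.3% of all coding genes, and 7 had one inside the gene (46.7%), against 32.3% of all. The highest were 62.8-fold at *Hdc*, which makes histamine, 40.1-fold at *Mitf*, a transcription factor of mast cells and melanocytes, and 28.3-fold at *Srgn*, the proteoglycan core of the granule. *Kit*, the receptor of stem cell factor, reached 12.0-fold and *Cpa3*, the mast cell carboxypeptidase, 19.5-fold. *Gata1*, *Gata2*, *Hpgds* and *Fcer1g* had none. *Mitf* spans 214359 bp and *Kit* 81736 bp, longer than any of the chymase genes, and the part of span length in these shares was not tested. In the *Gimap* cluster, another tandem array of immune genes, 5 of 8 had a summit within 20 kb (62.5%, background 62.3%). These are not separate cases either: *Gimap8* and *Gimap9* had the same nearest summit, and *Gimap1*, *Gimap5* and *Gimap3* shared another. The highest fold enrichment there was 95.7, beside *Gimap3*.

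**Figure D4:**
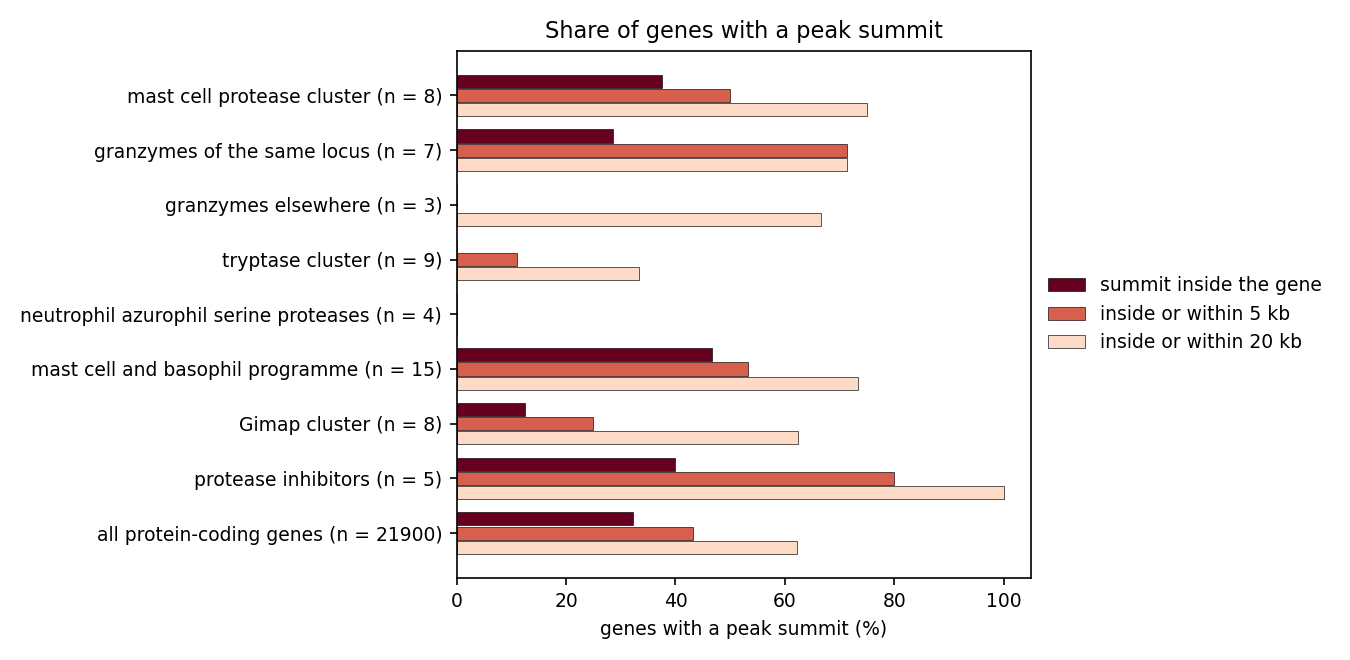
Percent of genes with a peak summit inside the gene, inside or within 5 kb, and inside or within 20 kb, for the mast cell protease cluster, the comparison lists and all 21900 protein-coding genes. The cluster's bars, at 37.5, 50.0 and 75.0%, stand near those of all coding genes, at 32.3, 43.2 and 62.3%.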

How the data were processed

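The labels give 1 antisera and 1 control library, and the submitters' processing notes name BWA, MACS2 and mm10. Peak calling by the authors was done once, per the file headers, with MACS 2.1.0.20151222 on paired-end fragments, antisera against control, at a q-value of 0.01, keeping 1 fragment per position (redundant share 20% and 42%). The deposited pileup is a signal in fragments, the authors' fold enrichment is the ratio of pileup plus 1 to local background plus 1, and p and q are given as −log10. The sources used here do not give mapping filters.

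Local background was recovered from pileup and fold. The Poisson p recomputed from it lay within 1% of the deposited one in 100% of 50196 peaks with a finite value. The rest of the 51356 peaks had a p too small to compute and were not checked. With a deposited −log10 p of 327.3, the strongest peak of the cluster is among them. Being at the floor allowed a tolerance of 0.001. Genes, spans and start windows came from RefSeq tables for GRCm38.p6, which hold no exons, so summits inside genes were not placed in exons or introns; the 8 genes all matched, and 6 had a window used here. *Cma2* and *Mcpt2* were not among them. Windows were aligned globally with Biopython 1.88 (match 1, mismatch −1, gap opening −3, extension −0.5). Windows of equal width were tiled from the first to the last gene of each chromosome. Distance counting was checked on simulated summits. Members and lists were chosen with earlier results of these data known. All 8 genes and their peaks were named, with at most 3 strongest genes of each other list; further names were chosen after their values were seen. No test was made. Alternatives were stricter q, other distances, overlap, and a background limit.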

Additional observations from a re-analysis of the deposited data

How the results depend on the processing

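Of 41 alternative values of the 5 measures of the cluster, 37 stayed within 1.5 times the reported count or density or within the counting interval of the reported fold enrichment. The median fold enrichment, 11.8, was 21.5 within 5 kb, within 10 kb and, in an alternative chosen after seeing the data, without the peak past *Ctsg*, because each of these leaves out that peak. Without the strongest peak, also chosen after seeing the data, the highest fold enrichment was 31.1 in place of 48.1. The number of peaks was 4 to 7 and the number of genes with a summit 4 to 8 over the distances from 5 to 50 kb. More of all coding genes also had a summit as the distance grew, 43.2% within 5 kb and 62.3% within 20 kb. Their share was not computed at 10 or 50 kb, so the counts there have no background beside them. A −log10 q of at least 5 or 10, and a local background under 10 fragments, removed none of the 5 peaks. They could not, since the peaks had −log10 q of 35.5 to 323.1 and local backgrounds of 4.01 to 5.61. Nor could distance change the highest fold enrichment, as that summit lay inside *Cma2*. Values fixed in this way are among the 37. No paired analysis was possible because each group has 1 library and no test was made. With 51 to 240 fragments over a summit, counting error alone leaves the 3 lower peaks indistinguishable in fold enrichment, and variation between cultures or immunoprecipitations is not known.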
